A study of Mus musculus with 2 samples.

Results

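The potassium channel genes of the mouse heart were described here: every gene whose symbol begins with Kcn and that has a protein-coding transcript, together with Abcc8 and Abcc9, which encode the sulfonylurea receptor subunits of one channel class. The rule gave 96 genes among the 55536 annotated ones. It used symbols and transcript types only and no measured value, although the members were chosen with earlier results of these data known. Hearts of 2 female mice of strain B6CASTF1/J, 25 days old, were sequenced as total RNA, one library per animal, with an input of 300 ng each and ERCC spike-ins. B6CASTF1/J is a first-generation hybrid of a laboratory strain and a wild-derived strain. Both libraries form a single group, labelled biological replicates 1 and 2, with no treated, mutant or other tissue to set against them. The animals carry separate biobank numbers but one shared donor label, and were taken as 2 animals. If they were not, every SD here would measure technical spread.

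Potassium channels let potassium leave the heart muscle cell, which ends each action potential and holds the resting potential between beats. Voltage-gated pore subunits (Kcna to Kcnd, Kcnh, Kcnq) open on depolarisation, inward rectifiers (Kcnj) and tandem-pore channels (Kcnk) pass current near rest, and calcium-activated channels (Kcnm, Kcnn) follow calcium. Accessory proteins (Kcne, Kcnip, Kcnab, Kcnmb, Abcc8, Abcc9) form no pore and set the gating, trafficking or drug response of the pore subunits they bind. In adult mouse ventricle, repolarisation is known to rest mainly on fast transient outward and slow delayed rectifier currents, whereas in large mammals the currents of Kcnh2 and Kcnq1 carry more of it.

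What the pore genes share in sequence is the signature of the selectivity filter, the stretch of the pore that picks out potassium. It was searched on the coding strand, in frame, in the longest coding sequence of each gene, as a pattern of 5 codons. The first codon had C in the middle or began with AG, the second had T in the middle, the third and the fifth began with GG, and the fourth began with T. The pattern was present in 75 of 96 members (78.1%) against 747 of 21817 protein-coding genes (3.42%), members included. In 12 genes it was present in 2 copies, and 11 of these genes were in the Kcnk family, where each subunit carries a pair of pore segments, and the other was Kcnn2. Among pore genes the pattern was not found in Kcnk1 and Kcnk7, which says only that these letters are not in that frame. A match is a description of letters, not of a working site. It was in all 15 Kcnj, 8 Kcna, 8 Kcnh, 5 Kcnq and 3 Kcnd genes, and in no Kcne, Kcnip, Kcnab or Abcc gene. The windows below come from detected members of several families and show 15 bases on each side, with the matched signature in capitals.
Kcnk3, first copy: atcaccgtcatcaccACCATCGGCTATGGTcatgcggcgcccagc
Kcnk3, second copy: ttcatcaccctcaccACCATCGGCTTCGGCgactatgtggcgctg
Kcnj11: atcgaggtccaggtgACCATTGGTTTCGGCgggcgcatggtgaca
Kcnj2: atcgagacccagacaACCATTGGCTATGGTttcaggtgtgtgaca
Kcnj5: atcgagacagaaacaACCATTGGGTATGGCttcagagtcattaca
Kcnh2: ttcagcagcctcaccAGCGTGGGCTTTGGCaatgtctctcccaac
Kcnq1: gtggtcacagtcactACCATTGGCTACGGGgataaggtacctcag
Kcna5: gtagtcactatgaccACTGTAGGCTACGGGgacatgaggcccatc
Kcnd2: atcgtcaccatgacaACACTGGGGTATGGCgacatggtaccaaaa

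The sequences are from the GENCODE M21 transcripts of mm10, 5′ to 3′ in coding direction. The fourth codon of the signature was TAT or TAC, the codons of tyrosine, in the first copy of Kcnk3 and in Kcnj2, Kcnj5, Kcnq1, Kcna5 and Kcnd2. It was TTC or TTT, the codons of phenylalanine, in the second copy of Kcnk3, in Kcnj11 and in Kcnh2. All 8 Kcnh genes had a phenylalanine codon there, as did 2 of 15 Kcnj genes and 11 of 14 Kcnk genes in at least one copy. The windows without an intron lie at chr5:30622187-30622231 (Kcnk3, second copy, plus strand), chr7:46099481-46099525 (Kcnj11, minus strand), chr11:111072192-111072236 (Kcnj2, plus strand), chr9:32322544-32322588 (Kcnj5, minus strand), chr5:24325540-24325584 (Kcnh2, minus strand) and chr6:126533730-126533774 (Kcna5, minus strand), all in coding exons. In Kcnk3 (first copy), Kcnq1 and Kcnd2 an intron interrupts the window. The filter genes held 63.0% of the members' summed level described next, and the genes without it 37.0%.

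Of the 96 genes 24 (25%) passed the detection threshold of 1 TPM in each animal, against 49.9% of the 22028 protein-coding genes. TPM is transcript abundance corrected for length and scaled to a fixed total per library, so levels of different genes can be compared. In both animals 15 members reached 10 TPM and 9 lay between 1 and 10 TPM. At the other end 37 were under 0.1 TPM in both animals, 14 of them with no count in either alignment-based gene table. For those 14 a count of 0 allows up to 3 counts per library, which covers counting error only. At the length of each gene's longest transcript this is 0.00704 to 0.0558 TPM. Deposited upper credibility bounds on TPM were higher for some of them, such as 0.442 TPM for Kcnmb2 in replicate 1. The median of all 96 members was 0.133 TPM. The 24 detected members had a median of 15.5 TPM, against 8.84 TPM for all detected protein-coding genes. All members together summed to 581 TPM in replicate 1 and 595 TPM in replicate 2, and the 4 highest held 55.2% of that, the 10 highest 80.6%.

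The 4 highest were genes of 4 different roles. Kcnk3 (ENSMUSG00000049265.7, chr5:30588170-30625271), a tandem-pore background channel, stood at 96.4 and 93.5 TPM in replicates 1 and 2. Abcc9 (ENSMUSG00000030249.15, chr6:142587862-142702315), a sulfonylurea receptor, stood at 86.0 and 90.9 TPM. Kcnip2 (ENSMUSG00000025221.15, chr19:45791839-45816061), the calcium-binding partner of the transient outward channels, stood at 83.7 and 87.7 TPM. The order of these 3 was not the same in both quantifications: the read-based tables, a second quantification from the reads without genome alignment, gave Abcc9 at 99.5 and 106, Kcnk3 at 101 and 103 and Kcnip2 at 90.3 and 103 TPM. Kcng2 (ENSMUSG00000059852.7, chr18:80294546-80364254), a subunit that forms no channel alone and modifies other voltage-gated subunits, followed at 55.2 and 56.2 TPM, and Kcnj11 at 37.5 and 38.5 TPM, each apart from its neighbours in both animals. The ranges of the 2 animals overlapped between Abcc9 and Kcnip2. They also did so from each gene to the next in the runs Kcnj5, Abcc8, Kcnj3, Kcne1 and Kcnj2, then Kcnd2, Kcna5 and Kcnn2, then Kcnd3 and Kcnn1, and last Kcna7, Kcnq5, Kcna4 and Kcnt2, so the order within these runs was not settled.

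**Figure D1:**
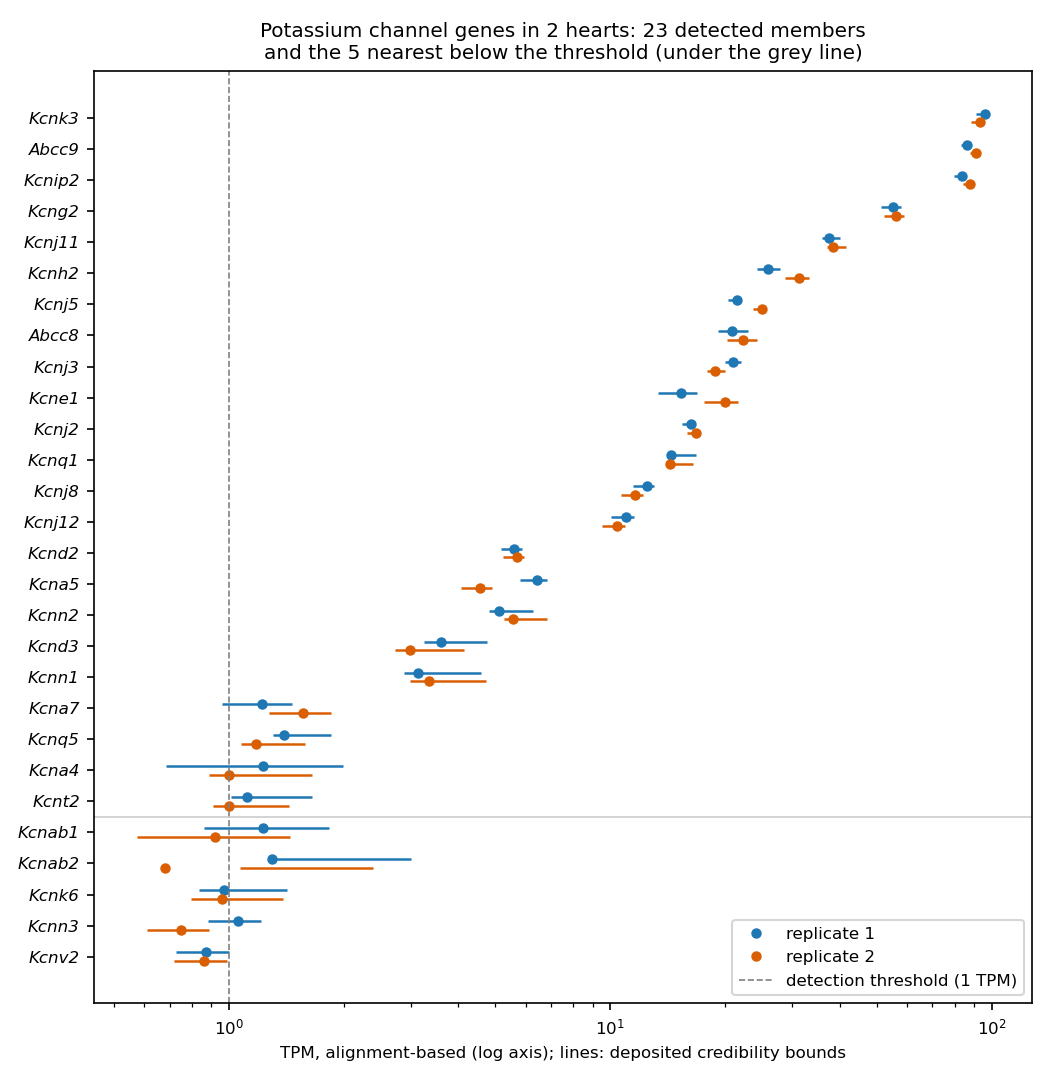
TPM (log axis) of 23 detected members and the 5 members nearest below the threshold, ordered by mean; blue and orange points are replicates 1 and 2, and lines are the deposited credibility bounds, whose level is not stated in the file headers. The top 3 genes lie between 83.7 and 96.4 TPM in both animals, and for Kcnab2 the point of replicate 2 lies below its own bounds.

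Channels active at rest were represented by a few genes of each family. The tandem-pore family summed to 97.2 ± 2.24 TPM (SD, n = 2), nearly all of it Kcnk3, while the other 13 genes stayed under 1 TPM in both animals. Kcnk6 was nearest at 0.97 and 0.96 TPM, and the stretch-sensitive Kcnk2 stood at 0.79 and 0.69 TPM, 128-fold below Kcnk3 by mean TPM. Of the acid-sensitive relatives of Kcnk3, Kcnk9 had no count in the alignment-based tables (3.23 and 2.39 read-based) and Kcnk5 stood at 0.21 and 0.23 TPM. The strong inward rectifiers that set the resting potential were Kcnj2, at 16.3 and 16.8 TPM, and Kcnj12, at 11.0 and 10.4 TPM. Kcnj2 was higher than Kcnj12 in both animals, by 0.62 ± 0.08 on the log2 scale (SD, n = 2; TPM + 0.1 throughout), while the related Kcnj4 and Kcnj14 stood at 0.035 and 0.245 TPM on average. Both strong rectifiers together came to 0.287 ± 0.00555 of the level of Kcnk3.

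The ATP-sensitive channel, which opens when the energy state falls, is built of Kcnj11 or Kcnj8 pores and Abcc9 or Abcc8 receptors. All 4 genes were detected. Kcnj11, the pore of heart muscle cells, exceeded Kcnj8, the pore known from vascular cells, at 37.5 and 38.5 against 12.5 and 11.6 TPM. Abcc9 exceeded Abcc8, the receptor best known from the pancreatic beta cell, at 86.0 and 90.9 against 20.9 and 22.3 TPM, a difference of 2.03 ± 0.01 on the log2 scale. The receptor genes together came to 110 ± 4.41 TPM and the pore genes to 50.1 ± 0.0919 TPM. The ratio of the receptor gene sum to the pore gene sum was 2.14 and 2.26 in the 2 animals, and 2.22 and 2.33 in the read-based tables. Pericyte markers, which mark cells that use Kcnj8, were present (6 of 6 detected, summing to 182 and 149 TPM), and so were smooth muscle markers (5 of 5, 250 and 189 TPM). In whole tissue fewer cells of a type and less RNA per cell cannot be told apart.

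The acetylcholine-gated channel of atrium and pacemaker tissue combines Kcnj3 and Kcnj5. Kcnj5 stood at 21.6 and 25.0 TPM and Kcnj3 at 20.95 and 18.9 TPM. Kcnj5 was the higher by 0.22 ± 0.26 on the log2 scale, a difference smaller than its spread, and in the read-based tables Kcnj3 was the higher (mean log2 ratio -0.06). The brain members of the same group, Kcnj6 and Kcnj9, had no count in the alignment-based tables, and the read-based ones gave Kcnj6 3.21 and 1.04 counts and Kcnj9 none. The receptor that opens the channel through its G protein, Chrm2, stood at 32.2 and 33.1 TPM. The regulators Rgs4 and Rgs6, which speed deactivation, stood at 7.86 and 4.97 and at 5.32 and 5.27 TPM. All 6 atrial markers were detected with sums of 1515 and 1181 TPM, and 4 of 4 ventricular markers with 7917 and 8266 TPM, so both chambers were in the samples.

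Transient outward current genes differed widely in level between pore and partner. Kcnd2, the pore of the fast current, stood at 5.61 and 5.69 TPM, and its relative Kcnd3 at 3.60 and 2.99 TPM. Kcnd2 was higher by 0.77 ± 0.20 on the log2 scale. Kcnip2 outnumbered both pores together 9.08-fold and 10.1-fold in the 2 animals, and 8.87-fold and 10.5-fold in the read-based tables. The other Kcnip genes were at or below 0.67 TPM, and Kcnip1 had 1 alignment-based count over both libraries. The other known partners of Kcnd channels, Dpp6 and Dpp10, had 7 and 1 counts over both libraries. Kcna4, the pore of the slow transient outward current, lay at the threshold with 1.23 and 1.00 TPM, and the read-based tables gave 0.704 and 0.972 TPM. Irx5, a transcription factor known to repress Kcnd2 across the ventricular wall, stood at 3.86 ± 0.672 TPM, and its relatives Irx3 and Irx4 at 14.5 ± 3.87 and 11.9 ± 2.10 TPM.

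Among the slow delayed rectifier genes, Kcna5 stood at 6.43 and 4.55 TPM and was the one detected member higher in replicate 1 past the test given further on. Apart from Kcng2, no silent subunit of the Kcnf, Kcng, Kcns and Kcnv group was detected, and Kcnv2 came nearest at 0.87 and 0.86 TPM. Kcna7, a Kcna gene known from muscle, was detected at 1.22 and 1.57 TPM. Kcna1 and Kcna2 stood at 0.96 and 0.66 and at 0.55 and 0.60 TPM. Their soluble partners Kcnab1 (1.23 and 0.92 TPM) and Kcnab2 (1.30 and 0.68 TPM) reached the threshold in replicate 1 only. The 4 Kcnc genes, known for fast firing in neurons, summed to 0.995 ± 0.0495 TPM.

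The genes of the rapid and slow components of repolarisation in large mammals were all present except one partner. Kcnh2, the pore of the rapid component, stood at 25.9 and 31.3 TPM, about all of the Kcnh family sum of 28.9 ± 3.90 TPM. Kcnq1, the pore of the slow component, stood at 14.4 and 14.4 TPM, and Kcnh2 exceeded it by 0.98 ± 0.20 on the log2 scale. Kcne1, the small membrane partner of Kcnq1, stood at 15.3 and 20.0 TPM. Kcnq1 was below Kcne1 by 0.28 ± 0.27 on the log2 scale in these tables and above it by 0.14 in the read-based ones, so their order was not settled. Kcne2, a known partner of Kcnh2, had no count in either library by either quantification, which allows at most 0.0558 TPM in replicate 1. Kcne4 (0.80 and 0.55 TPM) and Kcne3 (0.40 and 0.09 TPM) were under the threshold. Akap9, the scaffold that anchors kinase and phosphatase to Kcnq1, stood at 15.9 and 17.5 TPM.

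Calcium-activated channels were low. The small-conductance genes Kcnn2 (5.10 and 5.56 TPM) and Kcnn1 (3.13 and 3.35 TPM) were detected, while Kcnn3 stood at 1.06 and 0.75 TPM and Kcnn4 at 0.27 and 0.33 TPM. The large-conductance pore Kcnma1 (0.31 and 0.37 TPM) and its smooth muscle partner Kcnmb1 (0.43 and 0.24 TPM) were both under the threshold, with the smooth muscle markers at the levels given above. Among the rest, the sodium-activated Kcnt2 stood at 1.12 and 1.00 TPM and Kcnq5 at 1.40 and 1.18 TPM.

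**Figure D2:**
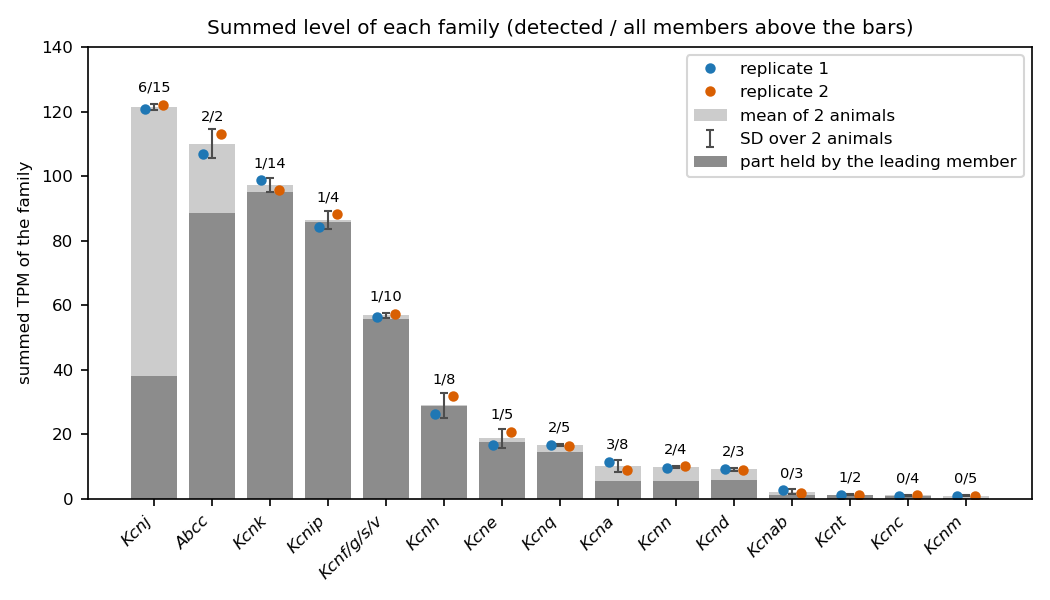
Summed TPM of 15 families with a mean sum of at least 0.5 TPM; light bars are the mean of 2 animals with the SD, dark bars the part held by the leading member, points the animals, and the fractions the detected and all members. Kcnj leads at 121 TPM spread over 6 detected genes, whereas the Kcnk, Kcnip, Kcng-containing and Kcnh sums are almost wholly one gene each.

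By family the members divided into those led by a single gene and those shared among several. The Kcnj family summed to 121 ± 1.04 TPM over 6 detected of 15 genes, with Kcnj11 at 38.0 TPM the largest. In the Kcnk, Kcnip, Kcnf/Kcng/Kcns/Kcnv, Kcnh and Kcne groups a single gene was detected among 14, 4, 10, 8 and 5 genes. Among the others, 2 of 5 Kcnq, 3 of 8 Kcna, 2 of 4 Kcnn and 2 of 3 Kcnd genes were detected, with sums of 16.5 ± 0.325, 10.1 ± 1.78, 9.78 ± 0.304 and 9.04 ± 0.368 TPM. No Kcnc, Kcnm, Kcnab, Kcnu or Kcnrg gene was.

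**Figure D3:**
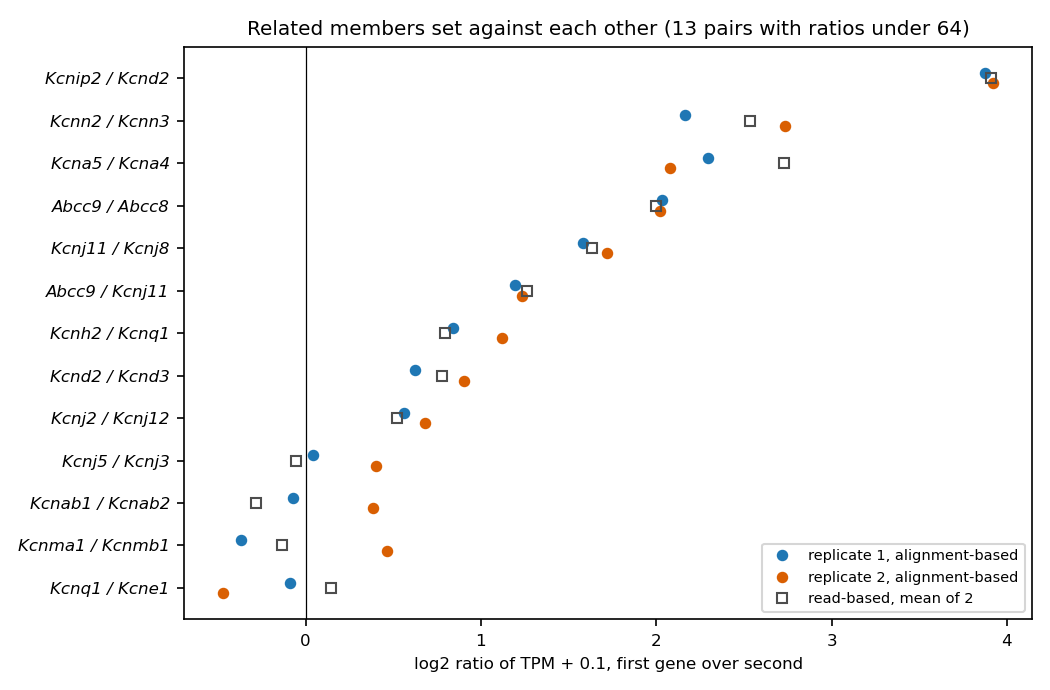
Log2 ratio of TPM + 0.1 for 13 of the 16 pairs of related members compared (x axis), in replicate 1 (blue), replicate 2 (orange) and as the mean of the read-based tables (open squares). Kcnip2 over Kcnd2 is the largest drawn, at 3.90 on average, and 4 pairs at the foot have points on both sides of 0.

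Related members were set against each other in 16 pairs. In 13 the gene named first was higher in both animals, in 1 (Kcnq1 and Kcne1) lower in both, and in 2 (Kcnma1 and Kcnmb1, Kcnab1 and Kcnab2) the animals differed in sign. The pairs, and which gene of each is named first, were set with earlier results of these data known. The count of 13 therefore depends on the naming and is no result about the genes. With 2 animals the smallest p of an exact sign-flip test is 0.5, so none of these pairs was tested. The tightest were Abcc9 over Abcc8, at 2.03 and 2.02, and Abcc9 over Kcnj11, at 1.19 and 1.24 on the log2 scale. Kcnip2 over Kcnip1 was the widest at 9.61 ± 0.14, a value set by the pseudocount because Kcnip1 was near 0.

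Several of these genes make proteins with different ends or inserts, and the transcript tables gave each annotated form a share. Abcc9 has alternative final coding exons of 135 bases, known as the source of receptor forms SUR2A (the proximal exon) and SUR2B (the distal one), which differ in drug response. The final exons and that of Abcc8 are shown with capitals where Abcc9 has the same base as Abcc8 at that place.
Abcc9 proximal, chr6:142594008-142594142: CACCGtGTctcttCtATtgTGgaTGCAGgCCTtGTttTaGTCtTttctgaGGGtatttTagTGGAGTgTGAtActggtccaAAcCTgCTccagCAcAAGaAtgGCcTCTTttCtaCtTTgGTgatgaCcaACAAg
Abcc9 distal, chr6:142590369-142590503: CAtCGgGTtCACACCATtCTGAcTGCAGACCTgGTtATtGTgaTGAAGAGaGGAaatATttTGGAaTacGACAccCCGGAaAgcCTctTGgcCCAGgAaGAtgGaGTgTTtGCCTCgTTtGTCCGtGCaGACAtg
Abcc8, chr7:46104627-46104761: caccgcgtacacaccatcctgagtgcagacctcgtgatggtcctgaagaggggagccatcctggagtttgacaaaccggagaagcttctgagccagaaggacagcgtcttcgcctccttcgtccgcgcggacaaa

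All 3 lie on the minus strand. The distal exon shared 94 of 135 bases (69.6%) with Abcc8 and the proximal one 70 of 135 (51.9%), while the 2 exons of Abcc9 shared 69 (51.1%). Forms ending in the proximal exon held 57.3% and 59.0% of Abcc9 in replicates 1 and 2, and the form ending in the distal exon, Abcc9-203, held 39.2% and 37.0%. The read-based tables gave 59.1% and 66.6% to the proximal and 31.1% and 26.3% to the distal exon. The proximal forms therefore led in all 4 tables, although the single leading entry was Abcc9-203 in the alignment-based tables and Abcc9-202 in the read-based ones. In TPM the distal form alone stood at 33.7 and 33.6, above all of Abcc8.

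A 105-base exon, chr6:142658498-142658602, is left out of Abcc9-201 and Abcc9-206, which together held 22.5% and 25.7% of the gene (15.9% and 23.6% read-based). A 39-base exon, chr6:142648027-142648065, is left out of Abcc9-204, with 19.8% and 17.2% (10.03% and 12.99% read-based). Both lengths are multiples of 3 and keep the reading frame.

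The Kcnip2 forms differ near the start, in the part that varies among proteins of the family. Kcnip2-202 held 53.8% and 53.9% of the gene. Kcnip2-209, whose coding sequence differs by an added 54-base exon, held 27.2% and 29.9%. Kcnip2-208, whose coding sequence lacks a 96-base exon instead, held 15.7% and 13.98%. Read-based shares were 44.0% and 39.7%, 36.7% and 35.0%, and 8.06% and 12.2%, in the same order. The variable exons are in capitals between 12 coding bases of their neighbours.
Kcnip2, added in Kcnip2-209, chr19:45796279-45796332: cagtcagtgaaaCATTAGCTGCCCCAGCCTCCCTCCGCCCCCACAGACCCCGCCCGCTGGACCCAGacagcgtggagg
Kcnip2, absent from Kcnip2-208, chr19:45797091-45797186: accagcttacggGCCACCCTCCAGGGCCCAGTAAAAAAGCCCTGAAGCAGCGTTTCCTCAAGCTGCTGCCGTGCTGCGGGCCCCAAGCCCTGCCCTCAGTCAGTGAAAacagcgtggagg
Kcnd3, absent from Kcnd3-202, chr3:105666962-105667018: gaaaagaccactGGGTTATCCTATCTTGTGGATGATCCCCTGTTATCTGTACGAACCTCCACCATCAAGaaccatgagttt
Kcnh2, first coding exon of Kcnh2-202, chr5:24329165-24329272: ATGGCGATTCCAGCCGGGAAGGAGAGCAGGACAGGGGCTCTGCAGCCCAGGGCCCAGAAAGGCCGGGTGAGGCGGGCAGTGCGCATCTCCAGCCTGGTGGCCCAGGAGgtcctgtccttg

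The Kcnip2 and Kcnh2 exons lie on the minus strand and the Kcnd3 exon on the plus strand. In Kcnd3 the form without the 57-base exon, Kcnd3-202, led with 65.8% and 75.7%, and forms with it held 26.6% and 16.9%. The read-based tables gave nearly the same values for each animal (64.7% and 75.9%, 26.1% and 16.3%), so the 2 animals differed by more than the 2 quantifications. Both quantifications start from the same reads, so their closeness does not bear on the difference between animals. Kcnd3-201, which has the exon, rested on 64.9 and 35.4 alignment-based counts in replicates 1 and 2. In Kcnh2 the full-length form, Kcnh2-201, held 52.6% and 54.8%. The short form Kcnh2-202, which begins at its own first coding exon and has 2460 coding bases against 3486, held 36.8% and 32.7% (31.0% and 31.3% read-based). Shares from short reads rest on how reads common to several forms were divided, and the shares are given without an error of their own.

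**Figure D4:**
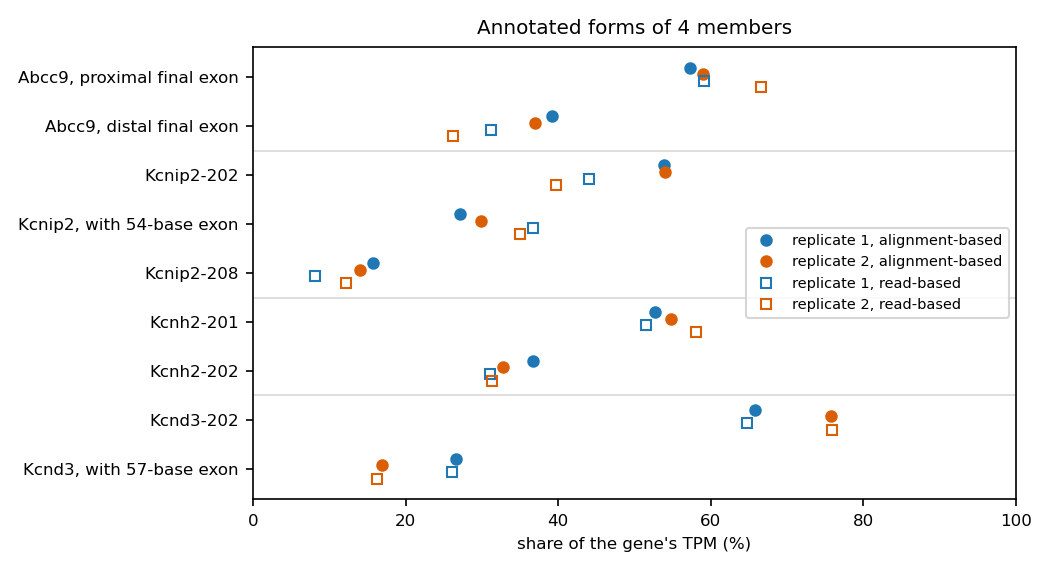
Share of the gene's TPM (x axis, percent) held by annotated forms of Abcc9, Kcnip2, Kcnh2 and Kcnd3; filled circles are alignment-based, open squares read-based, blue replicate 1 and orange replicate 2. Proximal-exon forms of Abcc9, Kcnip2-202, Kcnh2-201 and Kcnd3-202 are the highest of their genes in every table.

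Across the 15 members with at least 5 TPM and more than one transcript, the leading transcript was the same in both animals in 14 and in all 4 tables in 13. Abcc9, described above, was one whose leading transcript depended on the quantification. Leading shares ran from 33.9% on average (Abcc8-201) to 100% (Kcnj12-202) in the alignment-based tables.

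Some members lie side by side in the genome. Within 200 kb of each other there were 12 neighbouring pairs of members, with both detected in 2, one in 4 and neither in 6. Both detected pairs are the pore and receptor genes of the ATP-sensitive channel. Kcnj8 lies 16.2 kb from Abcc9 on chromosome 6, at 12.04 against 88.4 TPM, and Kcnj11 lies 3.76 kb from Abcc8 on chromosome 7, at 38.0 against 21.6 TPM. Thus the higher pore gene lay beside the lower receptor gene. Kcne1 and Kcne2, 47.9 kb apart on chromosome 16, stood at 17.7 and 0 TPM, and Kcnj2 and Kcnj16, 38.2 kb apart on chromosome 11, at 16.5 and 0.01 TPM. Kcnj5 lies 28.1 kb from Kcnj1, at 23.3 against 0.005 TPM, and Kcna5 lies 105 kb from Kcna1, at 5.49 against 0.81 TPM.

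Some members overlap genes on the other strand, and whether reads were counted by strand is not given in the sources used here. Kcnq1 contains Kcnq1ot1, a long noncoding RNA read in the opposite direction, with 1041 and 610 counts against 1383 and 1454 for Kcnq1. Without strand, reads from bases shared by the transcripts of both genes cannot be told apart. The overlap was taken from whole gene spans and shared exon bases were not computed, so how far the level of Kcnq1 is uncertain is not known. Kcnk3 overlaps Gm9899 (497 and 463 counts against 11088 and 11363). Among undetected members Kcnip1 and Kcnmb1 overlap each other on chromosome 11.

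Of 32 partner and regulator genes outside the channel families, such as scaffolds and signalling proteins, 27 were detected. Actn2, a sarcomere protein that binds several channels, led at 732 and 719 TPM. Tmem38a, a potassium-permeable channel of the sarcoplasmic reticulum with another name stem, stood at 176 and 180 TPM, above every member. Ank2, an anchor for membrane proteins, stood at 127 ± 4.07 TPM and Cav3, the caveolin of muscle, at 47.6 ± 4.74 TPM. Lrrc55, a partner of Kcnma1, was detected at 1.07 and 1.36 TPM although Kcnma1 was not.

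Between the 2 animals no member differed by the full rule used, and smaller differences were found in both directions. Estimated counts summed to 43190646 and 42954475, and a library difference was counted where an exact binomial test with Benjamini-Hochberg adjustment over all genes gave p under 0.05, the ratio of scaled counts was at least 2 and the credibility intervals were apart. None of the 49 members with a mean count of at least 10 was counted as differing, against 0.821% of 15839 genes. At an unadjusted p under 0.05 by the same exact binomial test there were 20 of 49 members, against 29.9% of all tested genes. Under other scalings, filters and rules the count was 0 except for 1 (Kcna6) with spike-in scaling and 6 without the minimum ratio. On simulated counts at these depths, drawn with counting error only, the step called 181 of 200 genes changed 3-fold. It called 2 of 200 changed 1.5-fold, a change that the minimum ratio of 2 leaves out by design. Credibility intervals were not simulated. The exact binomial tests compare libraries and cover counting error only.

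Smaller differences were past the adjusted threshold in 14 of 49 members (28.6%), against 20.3% of all tested genes. Of these, 10 were higher in replicate 2 (9.43% of all genes) and 4 higher in replicate 1 (10.9%). Scaled by total counts the split was 8 to 7, and by spike-in totals, which shifted the median log2 ratio of all genes by -0.10, it was 6 to 7. Kcne1 was 1.44-fold higher in replicate 2 (95% interval 1.29 to 1.60, adjusted p = 9.85e-10 by the exact binomial test), on 569 and 795 counts. Kcnh2 was 1.28-fold higher (1.22 to 1.34, adjusted exact p = 2.45e-21), and Kcnj5 1.22-fold (1.16 to 1.28, adjusted exact p = 3.85e-14). Kcna4 was 1.57-fold higher in counts (1.23 to 2.03, adjusted exact p = 0.00228), although its TPM was lower in replicate 2. Abcc9, Kcnip2, Kcnj11, Kcnj2, Kcng2 and Kcnk3 were higher in counts by ratios of 1.12, 1.13, 1.10, 1.09, 1.07 and 1.05. The last 4 lost the call under spike-in scaling. Like Kcna4, Kcnk3 had a lower TPM in replicate 2 (96.4 and 93.5 TPM in replicates 1 and 2), so its direction depended on the measure.

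Of the 4 members higher in replicate 1, Kcna6 had the widest ratio, with 142 and 73 counts, a ratio of 0.528 (0.393 to 0.705, adjusted exact p = 7.75e-05). Kcna5 stood at a ratio of 0.751 (0.663 to 0.851, adjusted exact p = 6.59e-05), on 600 and 439 counts. Kcnn3 (0.743) and Kcnab1 (0.642) passed the exact test with adjusted p of 0.0317 and 0.0474, and both calls were lost in the read-based counts, that of Kcnab1 also without the filter on counts. Kcna5 was the one detected gene among the 4. Of 28 tested partner and regulator genes, 8 were higher in replicate 2 and 5 in replicate 1 at an adjusted exact p under 0.05, and 0 met the full rule. In the same libraries all 6 cardiomyocyte markers passed the exact test as higher in replicate 2 (sums of 25774 and 26771 TPM). Of the atrial markers 5 of 6, and of the smooth muscle markers 4 of 5, passed it as higher in replicate 1, as did 2 of 5 tested conduction markers (sums of 11.5 and 8.96 TPM). Endothelial (4 of 5), fibroblast (3 of 5), macrophage (2 of 5) and pericyte (2 of 6) markers also passed as higher in replicate 1, with none of these lists' genes passing the other way. Of the ventricular markers 3 of 4 passed as higher in replicate 2. Liver markers summed to 0.17 TPM in replicate 1 and 21.4 TPM in replicate 2. Markers of neurons summed to 2.73 and 2.12 TPM, with Chat at 0 in both. The part of these differences in the values of the channel genes was not tested.

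**Figure D5:**
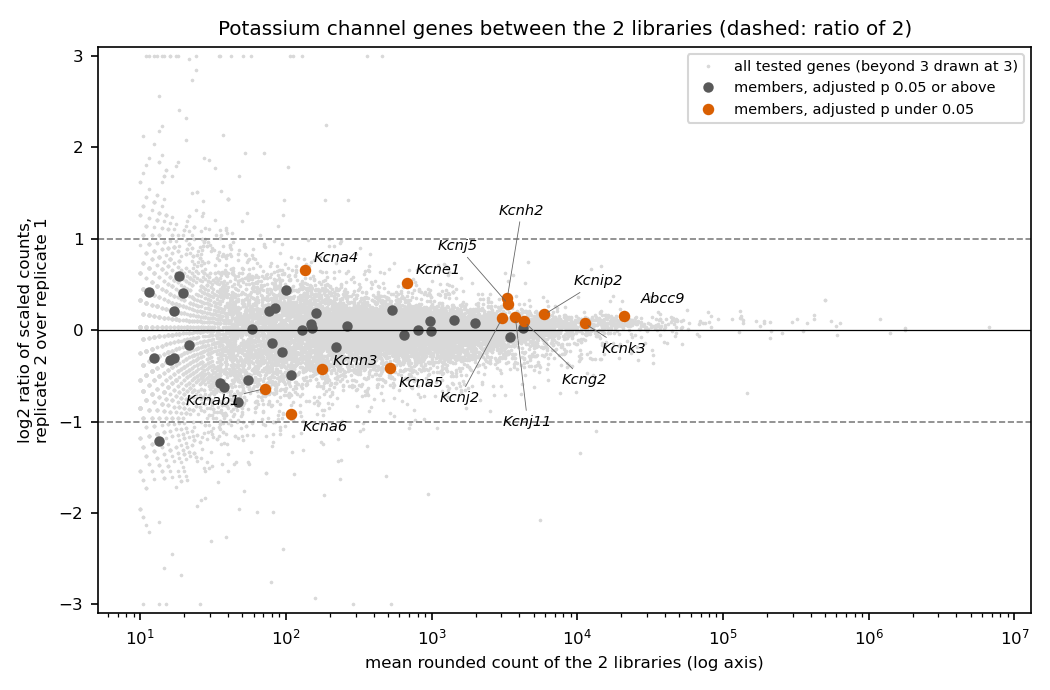
Log2 ratio of scaled counts (replicate 2 over replicate 1, y axis) against the mean count (log x axis) for all 15839 tested genes (grey) and the 49 tested members (dark, or orange with an adjusted p under 0.05 by the exact binomial test). The orange members lie between the dashed lines that mark a ratio of 2, with Kcna6 nearest the lower one.

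Spread over animals is given here for the 24 detected members. Their median absolute log2 ratio of scaled counts between the animals was 0.120, against 0.101 for detected protein-coding genes. The SD was 4.93% of the mean at the median of the 24 detected genes, from 0.0983% (Kcnq1) to 24.2% (Kcna5). Credibility intervals of the 2 animals were apart in 6 of 24 detected genes, which were Abcc9, Kcnh2, Kcnj5, Kcnj3, Kcne1 and Kcna5, against 14.2% of detected protein-coding genes. The choice of quantification also moved levels. Read-based TPM was above the alignment-based value in 22 of 24 detected genes. The median ratio was 1.13, with a range from 0.751 (Kcna4) to 1.40 (Kcnj3). The same share and ratio were not computed over all detected genes, so these values say nothing particular to the members. For Kcnab2, just under the threshold, the TPM of 0.68 in replicate 2 lay below its own credibility bounds of 1.07 and 2.39. In replicate 1 its TPM of 1.30 was just under its lower bound of 1.31. Counts were nevertheless 59 and 58, so the level of Kcnab2 is uncertain. Of the 24 detected genes only Abcc9 lay outside its own bounds, in replicate 1, at 85.97 TPM against an upper bound of 85.94.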

How the data were processed

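The members, lists and pairs were chosen with earlier results of these data known. Expected and estimated counts are unnormalized read numbers per gene or transcript, per the file headers. TPM values were made by the authors from all entries of a table, spike-ins included. The score columns hold deposited credibility bounds on TPM. The percent column, deposited in the alignment-based transcript tables, is each transcript's percentage of its gene. Annotation was GENCODE M21 on mm10 per the deposited listings; the aligner is not given in the sources used here. Members were matched by identifier; 4 symbols with only noncoding transcripts and Kcnq1ot1 stayed out. Named genes were all detected members, the highest of each family, the 5 nearest below the threshold, and members of pairs, current lists and the detected partner list. Read-based transcripts were summed to genes. Counts were rounded and scaled with TMM factors (edgeR 4.0.16, R 4.3.3) from genes averaging at least 10 counts, and tested with scipy 1.17.1 (two-sided exact binomial test). This step was tested on simulated data. Other alternatives used DESeq2 1.42.0 size factors, total or spike-in counts, other thresholds, a pseudocount of 1, posterior mean TPM, and TPM rescaled to protein-coding nuclear genes. Interval ratios are exact at 95%. A few items are not reported here. Sequences came from GENCODE M21 transcripts; no genome was used.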

Additional observations from a re-analysis of the deposited data

How the results depend on the processing

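The number of detected members was 38 with TPM rescaled to protein-coding nuclear genes, 36 at a threshold of 0.5 TPM and 20 at 2 TPM, and 24 to 27 with one animal left out. The summed level was 665 TPM in the read-based tables, 1510 TPM after rescaling, and 581 to 595 TPM with one animal left out. Of the members, 1 was counted as differing with spike-in scaling and 6 without the minimum ratio, and 0 under the other 6 alternatives. Pair directions turned in the read-based tables for Kcnj5 over Kcnj3 (-0.056), Kcnq1 over Kcne1 (0.14), Kcnma1 over Kcnmb1 (-0.14) and Kcnab1 over Kcnab2 (-0.28), the last also with posterior mean TPM (-0.68). With one animal left out, Kcnma1 over Kcnmb1 ran from -0.37 to 0.47 and Kcnab1 over Kcnab2 from -0.074 to 0.39. The causes were not tested, except that rescaling divides by a smaller total by construction and so raises the members' TPM. The number of pairs with the first gene higher in every animal used, which depends on the order of naming, was 13 to 15 with one animal left out. No paired analysis was possible because there is a single group, and leaving out an animal leaves no comparison of libraries. Depth limits members under about 10 counts, which were not compared.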
